A study of Mus musculus with 20 samples.

Results

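The Hoxb cluster, from Hoxb13 to Hoxb1 on mouse chromosome 11, was taken as the interval chr11:96050001-96235000 of the mm9 genome, 185 kb long. Its 10 Hox genes are Hoxb1, Hoxb2, Hoxb3, Hoxb4, Hoxb5, Hoxb6, Hoxb7, Hoxb8, Hoxb9 and Hoxb13. The members measured were the CpG cytosines of this interval covered by at least 10 reads in at least 4 of the 5 libraries of every group. There were 1300 of them, of 1914 listed there in any library and of 1730534 kept on chromosomes 1 to 19. They filled 70 fixed windows of 1 kb with 3 or more kept cytosines, of 127276 such windows in all. Another 15 windows of the interval held only 21 kept cytosines between them and were not tested as windows. Position alone set the interval, and no methylation value was used.

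Methylation was read by enhanced reduced representation bisulfite sequencing (ERRBS), in which bisulfite turns unmethylated cytosines of CpG-rich restriction fragments into T and leaves methylated ones as C. The 20 libraries came from promyelocytes, the granulocyte precursors, of FVB/n mice, in 4 groups of 5. These were wild-type (WT) early promyelocytes with the surface marker CD34 (WT CD34+), WT late promyelocytes without it (WT CD34-), and the same fractions of mice carrying a PML-RARa transgene (PML-RARa CD34+ and PML-RARa CD34-). PML-RARa, the fusion of PML with retinoic acid receptor alpha, drives acute promyelocytic leukaemia. The labels used here name neither the age of the mice nor the promoter of the transgene. They do not say whether the 5 libraries of a group are separate mice, so p-values measure the spread between libraries, which may be technical. The libraries hold no RNA, so the sorted fractions could not be checked against marker transcripts.

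Hox genes encode homeodomain transcription factors, and their order along a cluster follows their order of expression along the body axis of the embryo. In blood formation Hoxb genes are mostly active in stem and progenitor cells and are turned down as cells mature. Hoxb4 is known for expanding blood stem cells when overexpressed, Hoxb8 for blocking myeloid maturation when overexpressed, Hoxb1 and Hoxb2 for patterning the hindbrain, and Hoxb13 for its role in the prostate. Retinoic acid acts on the cluster through receptors that bind DNA near several of its genes, and Polycomb proteins hold Hox clusters in cells where they are silent.

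The positions could be tied to named genes at 2 places, and both sequences are shown because all distances below are counted from one of them. RefSeq start sequences (250 bases before to 50 after the start, GRCm38.p6) were laid along the chromosome by the spacing of their CpG letters. The start of Hoxb3os, a noncoding RNA next to Hoxb2 in gene order, matched 27 listed cytosines, with 8 at the next best place, and lies at chr11:96214659-96214958 in mm9 on the minus strand. The start of Gm30134, a predicted gene that follows Hoxb13 in gene order, matched 22, with 6 at the next best place, and lies at chr11:96064693-96064992 on the minus strand. Both are printed 5′ to 3′ in the direction of transcription, on the strand with the sense of the RNA, with the letters of each CpG in capitals.
Hoxb3os: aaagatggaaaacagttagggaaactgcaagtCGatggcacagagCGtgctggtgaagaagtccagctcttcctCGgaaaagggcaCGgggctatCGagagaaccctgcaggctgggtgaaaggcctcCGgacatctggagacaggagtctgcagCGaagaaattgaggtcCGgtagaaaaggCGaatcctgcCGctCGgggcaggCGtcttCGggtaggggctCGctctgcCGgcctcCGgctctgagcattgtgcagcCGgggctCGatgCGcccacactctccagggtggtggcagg
Gm30134: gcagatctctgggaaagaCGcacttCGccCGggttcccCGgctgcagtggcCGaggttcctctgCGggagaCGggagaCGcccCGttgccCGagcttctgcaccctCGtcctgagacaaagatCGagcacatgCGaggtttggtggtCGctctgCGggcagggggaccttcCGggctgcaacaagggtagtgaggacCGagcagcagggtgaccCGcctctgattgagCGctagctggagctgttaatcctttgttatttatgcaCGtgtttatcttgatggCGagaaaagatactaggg
Hoxb1, Hoxb4 and Hoxb8 also had a start sequence, but at most 5 listed cytosines of the interval matched any of them and they were not placed. No start sequence was used for the other 7 Hoxb genes. The retinoic acid receptor half-site AGGTCA, searched on both strands, is in 16.3% of 32851 RefSeq start sequences of this length, and TGATTNAT, a word bound by Hox and Pbx proteins together, in 3.22%. Neither is in the 2 printed sequences.

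Both placed starts were nearly free of methylation in every library. The Hoxb3os start had a mean level of 0.801% over 23 kept cytosines. It read 0.970, 0.336, 0.630, 0.722 and 0.190% in WT CD34+ (mean 0.570 ± 0.311, SD, n = 5) and 0.836, 0.684, 1.19, 1.26 and 0.282% in PML-RARa CD34+ (mean 0.85 ± 0.398, SD, n = 5). It read 1.28, 0.785, 0.758, 0.585 and 1.10% in WT CD34- (mean 0.902 ± 0.282, SD, n = 5) and 0.565, 0.0930, 1.85, 0.843 and 1.08% in PML-RARa CD34- (mean 0.887 ± 0.652, SD, n = 5). The compared groups overlapped. Gm30134 had a mean level of 2.11% over 15 kept cytosines, with group means from 1.38% in WT CD34+ to 2.82% in PML-RARa CD34- and overlapping libraries. The most methylated kept cytosine of the Gm30134 sequence, opposite letter 27 from its 5′ end on the strand not printed, had a level of 8.57%. That of the Hoxb3os sequence, at letter 156 of the printed strand, had a level of 3.51%.

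By RefSeq gene order, the stretch between these starts holds the miRNA genes Mir196a-1 and Mir10a and the genes Hoxb9, Hoxb8, Hoxb7, Hoxb6, Hoxb5, Hoxb3 and Hoxb4. Gene order goes by the lower coordinate of each gene, and Hoxb3os, on the minus strand, starts at its upper end. Hoxb2 may therefore also lie in this stretch, and its side of the Hoxb3os start was not settled. The Gm30134 and Hoxb3os starts lie 150.0 kb apart, and the 1134 kept cytosines between them had a mean level of 19.2%. On the Hoxb13 side 87 cytosines had a mean of 7.47%, and beyond the Hoxb3os start, toward Hoxb1, 79 had a mean of 12.5%. On the Hoxb13 side the group means were 6.91 ± 0.905% in WT CD34+, 7.27 ± 0.978% in PML-RARa CD34+, 7.80 ± 0.616% in WT CD34- and 7.20 ± 0.645% in PML-RARa CD34- (SD, n = 5 each). The compared groups overlapped in all 3 stretches.

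Start sequences of related genes were placed the same way on their own chromosomes. Of 29 genes of the Hoxa, Hoxc and Hoxd clusters 8 were placed, with a median level of 2.43% and the highest at Hoxd12 (5.99%), Hoxd10 (4.61%) and Hoxa6 (4.02%). The 7 placed of 10 MLL and menin genes, which keep Hox genes active, had a median of 0.0904%. The 7 placed of 14 Polycomb genes, which repress them, had a median of 0.0759%, and the 5 placed of 7 Cdx and retinoid receptor genes one of 0.158%. Of 9 genes for TALE proteins, which bind DNA with Hox proteins, Meis3 (0.190%) and Pbx2 (0.0812%) were placed, and of 11 neighbours of the cluster Snx11 (0.0745%) and Hoxb3os. No promoter of a Hoxb gene was placed, so promoters with a like pattern could not be looked for.

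The cluster held more partly methylated CpGs and fewer highly methylated ones than the kept CpGs of all chromosomes. Of its cytosines 60.7% had a mean level below 5% (56.6% over all chromosomes) and 14.5% one of 5 to 20% (3.78%). Levels of 20 to 80% were found at 16.5% (7.41%) and levels above 80% at 8.31% (32.2%). Levels below 1% were less common in the cluster, at 36.7% of its cytosines (49.3%). Of the 70 windows 30 were below 5% (42.9%, against 19.1% of all windows) and 17 at 5 to 20% (24.3% against 4.80%). In the class of 20 to 80% were 14 windows, a share near that of all windows (20% against 17.9%), and 9 were above 80%. The last class took 12.9% of the cluster's windows and 58.2% of all windows. Of its 28 windows with 3 to 9 kept cytosines 39.3% had a level above 50%, against 84.5% of all such windows. Of its 18 windows with 20 or more, 61.1% were below 5%, against 82.8% of all such windows. The median level of these dense windows was 2.86% in the cluster and 0.286% over all chromosomes.

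**Figure D1:**
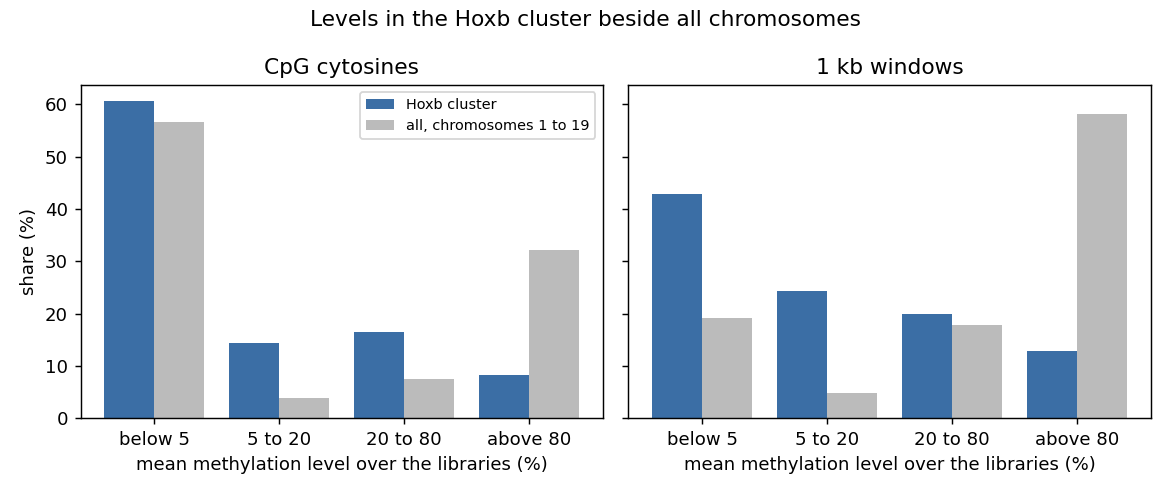
Share (percent) of CpG cytosines and of 1 kb windows in 4 classes of mean methylation level, for the Hoxb cluster and for all chromosomes. The class of 5 to 20% takes 14.5% of the cluster's cytosines and 3.78% of all, and the class above 80% takes 8.31% and 32.2%.

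Along the cluster, low stretches alternated with methylated ones, 23 stretches in all when windows were split at 20 and 80%. Successive tested windows of a class were joined whatever lay between them, and only 85 windows of the 185 kb held any kept cytosine. The widest gaps without one were 17.3, 11.0 and 8.29 kb, and the low stretch chr11:96213001-96228000 spans that of 11.0 kb. Windows named in this and the next paragraphs for their place were chosen after their values were seen, apart from the lowest, the highest, those nearest 50% and those of largest SD. The most CpG-rich, chr11:96133001-96134000 (90 kept cytosines) and chr11:96148001-96149000 (89), had levels of 0.852 ± 0.265% and 3.42 ± 1.77% (SD, n = 20). The lowest windows were chr11:96179001-96180000 (3 cytosines, 0.0114%), chr11:96180001-96181000 (52, 0.140 ± 0.110%) and chr11:96214001-96215000 (77, 0.438 ± 0.212%), which holds the Hoxb3os start. The highest were chr11:96184001-96185000 (3, 94.6 ± 3.93%), chr11:96205001-96206000 (28, 93.6 ± 1.49%) and chr11:96110001-96111000 (7, 91.5 ± 6.13%). In chr11:96205001-96206000 the 20 libraries lay between 90.9 and 95.9%.

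Methylated windows were not all sparse. From 30.2 to 3.21 kb on the Hoxb13 side of the Hoxb3os start, 8 of 9 tested windows had levels from 65.97 to 94.6%, among them chr11:96194001-96195000 (34 cytosines, 73.6 ± 4.87%) and chr11:96207001-96208000 (49, 78.5 ± 4.48%). The exception was chr11:96202001-96203000 (8 cytosines), at 1.75%. Methylated windows also stood alone between low tested ones. The window chr11:96152001-96153000 (6 cytosines) had a level of 78.4 ± 5.36%, with the nearest tested windows at 3.42 and 5.84%. The untested window chr11:96150001-96151000, between it and the window at 3.42%, had a mean of 30.1% over 2 cytosines. The window chr11:96163001-96164000 (5 cytosines) had a level of 90.3 ± 6.65%, with neighbours at 7.45 and 0.493%.

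**Figure D2:**
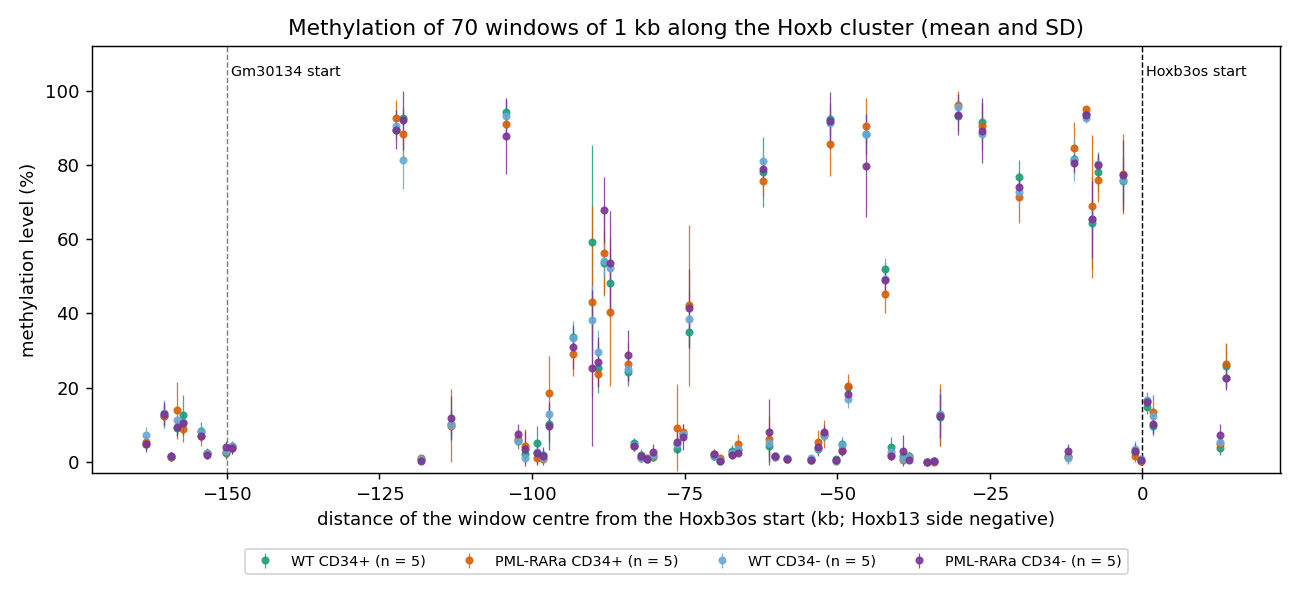
Methylation level (percent) of the 70 windows against the distance of the window centre from the Hoxb3os start (kb, negative toward Hoxb13); points are group means and bars SDs over the libraries of each of the 4 groups. Low and methylated stretches alternate from 0.0114% to 94.6% in mean level, and the group means part most at 90.2 kb on the Hoxb13 side.

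Sharp steps between neighbouring kept cytosines were rare. Of 1211 pairs of neighbouring kept cytosines at most 200 bp apart, 1 differed by at least 50 points, from 81.6% at chr11:96126277 to 24.1% at chr11:96126439. The pairs include both strands of the same CpG at 284 CpGs, so steps between separate CpGs were looked for in fewer pairs. In chr11:96181001-96182000, 31 cytosines up to chr11:96181726 had levels of 0.491 to 11.9%, and 3 from chr11:96181838 on had levels of 55.2 to 80.5%. With reads pooled, this window ranged from 4.11 to 25.9% between libraries, with an SD of 6.5 points. With every cytosine counting once the SD was 1.57 points. At 284 CpGs kept on both strands, the strands differed by a median of 0.589 points and by at most 10.1 points.

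The partly methylated windows were concentrated from 93.2 to 84.2 kb on the Hoxb13 side of the Hoxb3os start, where all 6 tested windows had levels from 26.1 to 57.9%. Some of these levels average unlike cytosines, with means of 4.07 to 66.2% in chr11:96130001-96131000 and 24.1 to 81.6% in chr11:96126001-96127000. The range was narrower in chr11:96121001-96122000 (21.7 to 46.8%) and chr11:96125001-96126000 (12.9 to 37.0%). The window nearest 50%, chr11:96172001-96173000 (17 cytosines), read 54.3, 49.7, 52.0, 53.4 and 50.5% in WT CD34+ and 45.6, 47.8, 38.5, 42.3 and 52.0% in PML-RARa CD34+. It read 39.6, 50.3, 49.9, 51.2 and 54.6% in WT CD34- and 53.6, 44.5, 50.3, 47.9 and 48.4% in PML-RARa CD34-. The compared groups overlapped, and the lowest library was in PML-RARa CD34+. The largest SD was at chr11:96124001-96125000 (4 cytosines, 42.5 ± 23.7%, n = 18 libraries with reads). It read 98.6, 45.1, 72.9, 41.8 and 37.1% in WT CD34+ and 57.9, 50, 0, 65.7 and 41.8% in PML-RARa CD34+. It read 31.8, 52.1, 35.2 and 34.1% in the 4 WT CD34- and 0, 25, 24.7 and 51.3% in the 4 PML-RARa CD34- libraries with reads. The libraries at 0 were PML-RARa CD34+ replicate 11 and PML-RARa CD34- replicate 6. Both are among the libraries of high scatter named below, as is WT CD34+ replicate 1, at 98.6%. Next in SD were chr11:96127001-96128000 (3 cytosines, 13.1 points) and chr11:96140001-96141000 (11 cytosines, 12.2 points), where the lowest and the highest library, at 15.5 and 70%, were both PML-RARa CD34+. Single cytosines of chr11:96140001-96141000 had means from 0 to 76.3%. With every cytosine counting once, the SD was 9.92 points in either of these windows and 23.7 points in chr11:96124001-96125000.

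**Figure D3:**
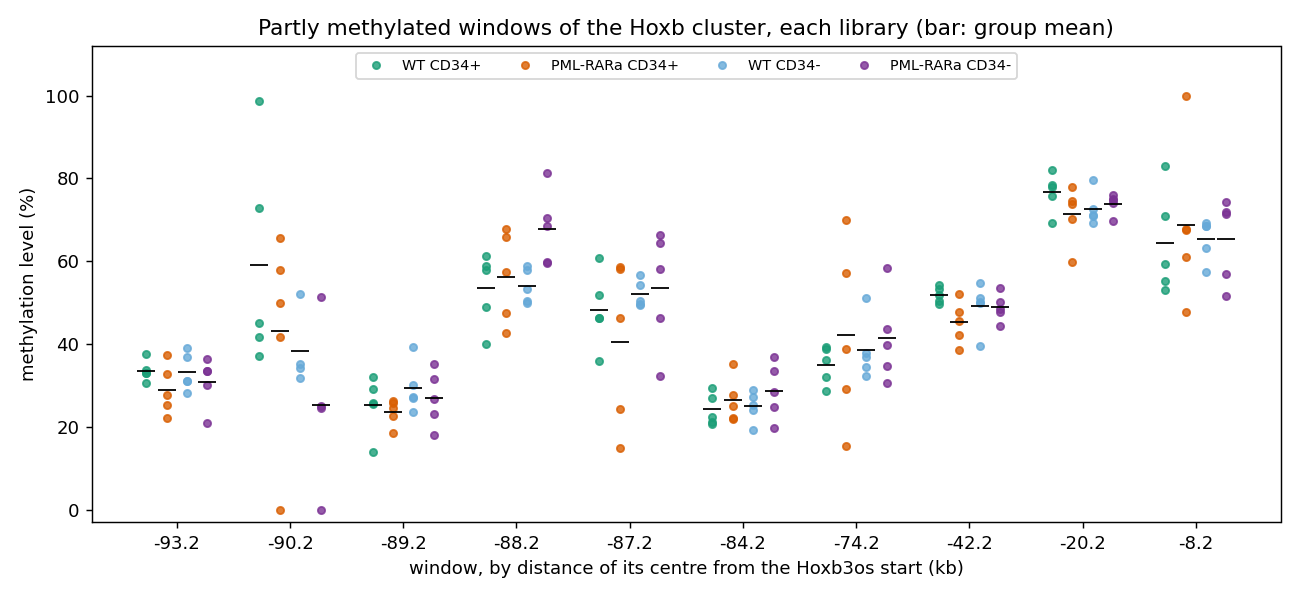
Methylation level (percent) of every library in the 10 windows nearest 50%, placed by the distance of their centre from the Hoxb3os start (kb, negative toward Hoxb13); points are libraries and black bars group means. PML-RARa CD34- (59.5 to 81.2%) lies above WT CD34- (50 to 59.0%) at 88.2 kb on the Hoxb13 side of the Hoxb3os start, and compared groups overlap in the other windows.

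In the remaining windows of this set the group means were close for their spread. They ran from 29.0 ± 6.02% in PML-RARa CD34+ to 33.6 ± 2.51% in WT CD34+ at chr11:96121001-96122000, and from 23.6 ± 3.16% in PML-RARa CD34+ to 29.5 ± 5.96% in WT CD34- at chr11:96125001-96126000 (SD, n = 5 each). At chr11:96130001-96131000 they ran from 24.2 ± 3.86% in WT CD34+ to 28.7 ± 6.79% in PML-RARa CD34-. At chr11:96206001-96207000 they ran from 64.3 ± 12.5% in WT CD34+ to 68.8 ± 19.2% in PML-RARa CD34+. Windows of 20 to 80% had a median SD over libraries of 5.60 points in the cluster and 8.59 over all chromosomes, with a median of 12.5 and 5 kept cytosines. Those of 5 to 20% also had the smaller median SD in the cluster, 2.88 against 4.56 points, with a median of 13 and 8 kept cytosines. Windows below 5% had the larger one in the cluster, 1.12 against 0.260 points, with a median of 17 and 28 kept cytosines. So did windows above 80%, 5.74 against 4.29 points, with 6 and 4.

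Median coverage of the kept cytosines in the cluster was 35 to 188 reads per library. In 5 libraries (WT CD34+ replicate 1, PML-RARa CD34+ replicates 5 and 11, PML-RARa CD34- replicates 6 and 12) the windows of 20 to 80% over all chromosomes lay a median of more than 6 points from the other libraries of their group. These are called the libraries of high scatter below.

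The mean level of the cluster was 18.0 ± 0.124% in WT CD34+, 17.7 ± 0.358% in PML-RARa CD34+, 17.9 ± 0.402% in WT CD34- and 17.7 ± 0.770% in PML-RARa CD34- (SD, n = 5 each). The compared groups overlapped, and no test was made on this mean. The lowest library, PML-RARa CD34- replicate 12, read 16.5%, and the others 17.3 to 18.5%. On the 905 cytosines kept in all 20 libraries it read 14.6%, within the 14.2 to 15.3% of the others. The difference between genotypes was -0.234 points in CD34+ (-0.142 within flowcell B and -0.438 within flowcell D) and -0.196 in CD34- (-0.0611 within flowcell A and -0.997 within flowcell B). The difference of CD34- from CD34+ was -0.0339 points in WT (0.164 within flowcell A and 0.301 within flowcell B and -0.400 within flowcell D) and 0.00481 in PML-RARa (-0.554 within flowcell B). The 20 libraries came from 4 flowcells, lettered A to D, and other flowcells did not hold both groups of a comparison. Within a flowcell each group had 1 to 3 libraries. The direction between genotypes in CD34- was not stable: the difference was 0.119 points without PML-RARa CD34- replicate 12, 0.220 without the 5 libraries of high scatter, 0.0279 at a coverage minimum of 20 reads and 0.0782 with reads pooled over the cytosines. With 1 library left out at a time, the difference of CD34- from CD34+ ran from -0.178 to 0.0731 points in WT and from -0.189 to 0.319 in PML-RARa, and with reads pooled it was 0.0320 and 0.490 points.

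**Figure D4:**
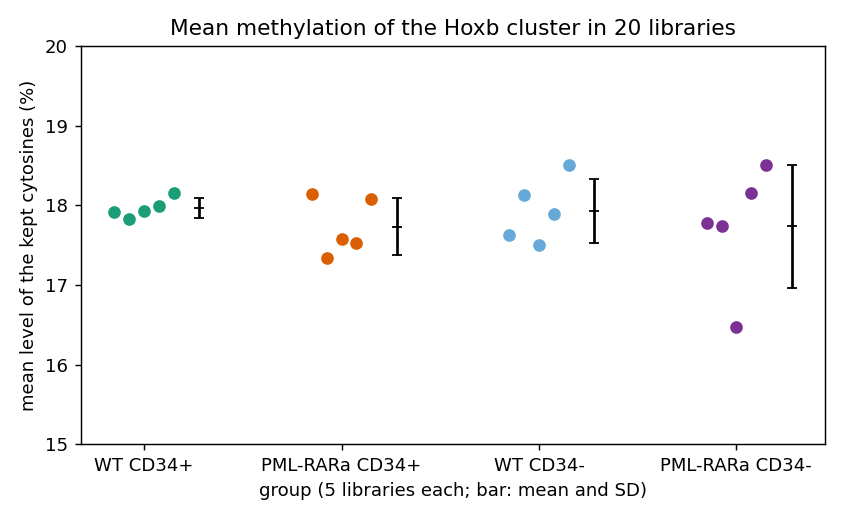
Mean methylation level (percent) of the kept cytosines of the Hoxb cluster in each of 20 libraries, by group, with group means and SDs; the axis runs from 15 to 20%. The groups overlap, and the lowest library, in PML-RARa CD34-, reads 16.5%.

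Between the genotypes in early promyelocytes (CD34+), no window and no cytosine of the cluster was called, where a call needs group means 10 or more points apart together with an adjusted p under 0.05. Over all chromosomes 0.00314% of windows and 0.000116% of cytosines were called. By the quasi-binomial F test the smallest adjusted p of a window was 1. Unadjusted p-values below 0.05 were found in 2 of 70 windows (4.17% of all) and 93 of 1300 cytosines (5.71% of all). The smallest p was at chr11:96115001-96116000 (4 cytosines), which read 11.6, 1.33, 5.62, 6.33 and 0% in WT and 0, 0, 2.61, 1.64 and 0.490% in PML-RARa. The means of 4.98 ± 4.59% and 0.948 ± 1.15% (SD, n = 5 each) differed by -4.03 points (-2.37 without WT replicate 1), and the groups overlapped. Next were chr11:96175001-96176000, with 1.61 ± 1.40% in WT and 0.448 ± 0.468% in PML-RARa, and chr11:96145001-96146000, with 0.236 ± 0.190% and 0.937 ± 0.654%. A difference of 10 points was reached in 1 window (3.31% of all), chr11:96124001-96125000, at -16 points. There the difference was -5.21 points without PML-RARa replicate 11 and -6.10 without WT replicate 1, and it turned to 5.97 without the libraries of high scatter. The median size of the difference was 1.19 points in the cluster and 1.53 points over all windows.

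Between the genotypes in late promyelocytes (CD34-), again no window or cytosine of the cluster was called, against 0.000786% of windows and 0.000173% of cytosines over all chromosomes. The smallest adjusted p of a window by the quasi-binomial F test was 0.550. Unadjusted p-values below 0.05 were found in 5 of 70 windows (7.77% of all) and in 160 of 1300 cytosines, 12.3% against 9.01% of all. The largest difference was at chr11:96126001-96127000, a partly methylated window of 6 cytosines that holds the sharp step. WT libraries read 50.3, 57.8, 50, 59.0 and 53.3% (mean 54.1 ± 4.16, SD, n = 5) and PML-RARa libraries 59.7, 81.2, 68.6, 70.4 and 59.5% (mean 67.9 ± 8.96, SD, n = 5). The difference was 13.8 points with an adjusted p of 0.550 by the F test, and 9.13 points without the libraries of high scatter. Every PML-RARa library lay above every WT one, which held in 1 of the 70 windows, while 0.933% of all windows had no overlap. In CD34+ the same window read 40 to 61.3% in WT and 42.7 to 67.9% in PML-RARa, with overlap.

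The other named windows of this comparison differed less or held few cytosines. The window of the Hoxb3os start, chr11:96214001-96215000, read 0.742, 0.602, 0.767, 0.761 and 0.478% in WT CD34- and 0.412, 0.0205, 0.70, 0.443 and 0.503% in PML-RARa CD34-. The difference was -0.254 points (adjusted p 0.577, F test), with overlap. At chr11:96051001-96052000 (21 cytosines), at the Hoxb13 end, the means were 7.29 ± 2.08% in WT and 4.86 ± 2.06% in PML-RARa (adjusted p 0.607, F test). At chr11:96093001-96094000 (3 cytosines) they were 81.2 ± 7.69% and 92.0 ± 7.98%, a difference of 10.8 points (adjusted p 0.635, F test). With chr11:96124001-96125000 (-13.1 points) and chr11:96126001-96127000, it made up the 3 windows of 70 that differed by 10 points or more (2.35% of all). At chr11:96124001-96125000 the difference was -4.64 points without PML-RARa CD34- replicate 6, -21.7 without PML-RARa CD34- replicate 20, -8.46 without WT CD34- replicate 8 and -0.303 without the libraries of high scatter.

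With maturation in WT mice, from CD34+ to CD34-, no window or cytosine of the cluster was called, against 0.431% of windows and 0.0601% of cytosines over all chromosomes. The smallest adjusted p of a window by the F test was 0.550, and 4 of 70 windows had an unadjusted p below 0.05 (6.19% of all). The smallest p was at the window of the Hoxb3os start, where the mean was 0.344 ± 0.149% in CD34+ and 0.670 ± 0.127% in CD34-, 0.326 points apart. At chr11:96093001-96094000 CD34+ libraries read 94.7, 90.3, 94.8, 91.9 and 91.8% and CD34- libraries 86.8, 86.7, 81.0, 68.1 and 83.3%. All CD34- libraries lay below all CD34+ libraries, -11.5 points in the means (adjusted p 0.563, F test), in 1 of 70 windows, against 2.1% of all windows without overlap. In PML-RARa mice this window read 91.4, 78.4, 91.7, 96.4 and 83.3% in CD34+ and 100, 100, 90.6, 81.7 and 87.6% in CD34-, with overlap. At chr11:96051001-96052000 the WT means were 4.69 ± 1.44% and 7.29 ± 2.08% (adjusted p 0.747, F test). The largest difference, -20.8 points at chr11:96124001-96125000, came with overlapping groups and was -10.9 points without WT CD34+ replicate 1, and 2 windows reached 10 points (3.08% of all).

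With maturation in PML-RARa mice, no window or cytosine of the cluster was called, against 0.0589% of windows and 0.00711% of cytosines over all chromosomes. Those were 75 windows and 123 cytosines, against 0 and 27 with flowcell as a factor, and 3 and 3 without the libraries of high scatter. Flowcell A held 3 of the 5 PML-RARa CD34- libraries and no PML-RARa CD34+ library. The smallest adjusted p of a window by the F test was 0.367, and 5 of 70 windows had an unadjusted p below 0.05 (9.4% of all). It belonged to chr11:96145001-96146000 (29 cytosines), where CD34+ libraries read 0.412, 1.97, 1.17, 0.704 and 0.428% and CD34- libraries 0.135, 0, 0.0601, 0.199 and 0.361%. The groups did not overlap (1 of 70 windows, 1.09% of all), with a difference of -0.786 points in a window that was nearly unmethylated. Without the libraries of high scatter it was -0.283 points, and the difference between genotypes in CD34+ there was 0.239 in place of 0.701 points. At chr11:96096001-96097000 the means were 1.05 ± 0.618% and 0.186 ± 0.287%, and at chr11:96175001-96176000 0.448 ± 0.468% and 2.95 ± 4.18%, the last with replicate 20 at 9.91%. The difference at chr11:96175001-96176000, 2.50 points, was 0.761 without replicate 20. Differences of at least 10 points were found in 4 windows (4.64% of all): chr11:96124001-96125000 (-17.9 points), chr11:96126001-96127000 (11.5), chr11:96127001-96128000 (13.0) and chr11:96169001-96170000 (-10.6). In the last, PML-RARa CD34- replicate 6 read 55.3%, and the difference was -4.50 points without it. The difference at chr11:96124001-96125000 was -9.43 points without PML-RARa CD34- replicate 6 and -28.6 without PML-RARa CD34+ replicate 11, and that at chr11:96127001-96128000 was 6.64 points without PML-RARa CD34+ replicate 11. Without the libraries of high scatter, chr11:96126001-96127000, chr11:96127001-96128000 and chr11:96169001-96170000 differed by 5.53, 2.57 and -0.990 points.

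**Figure D5:**
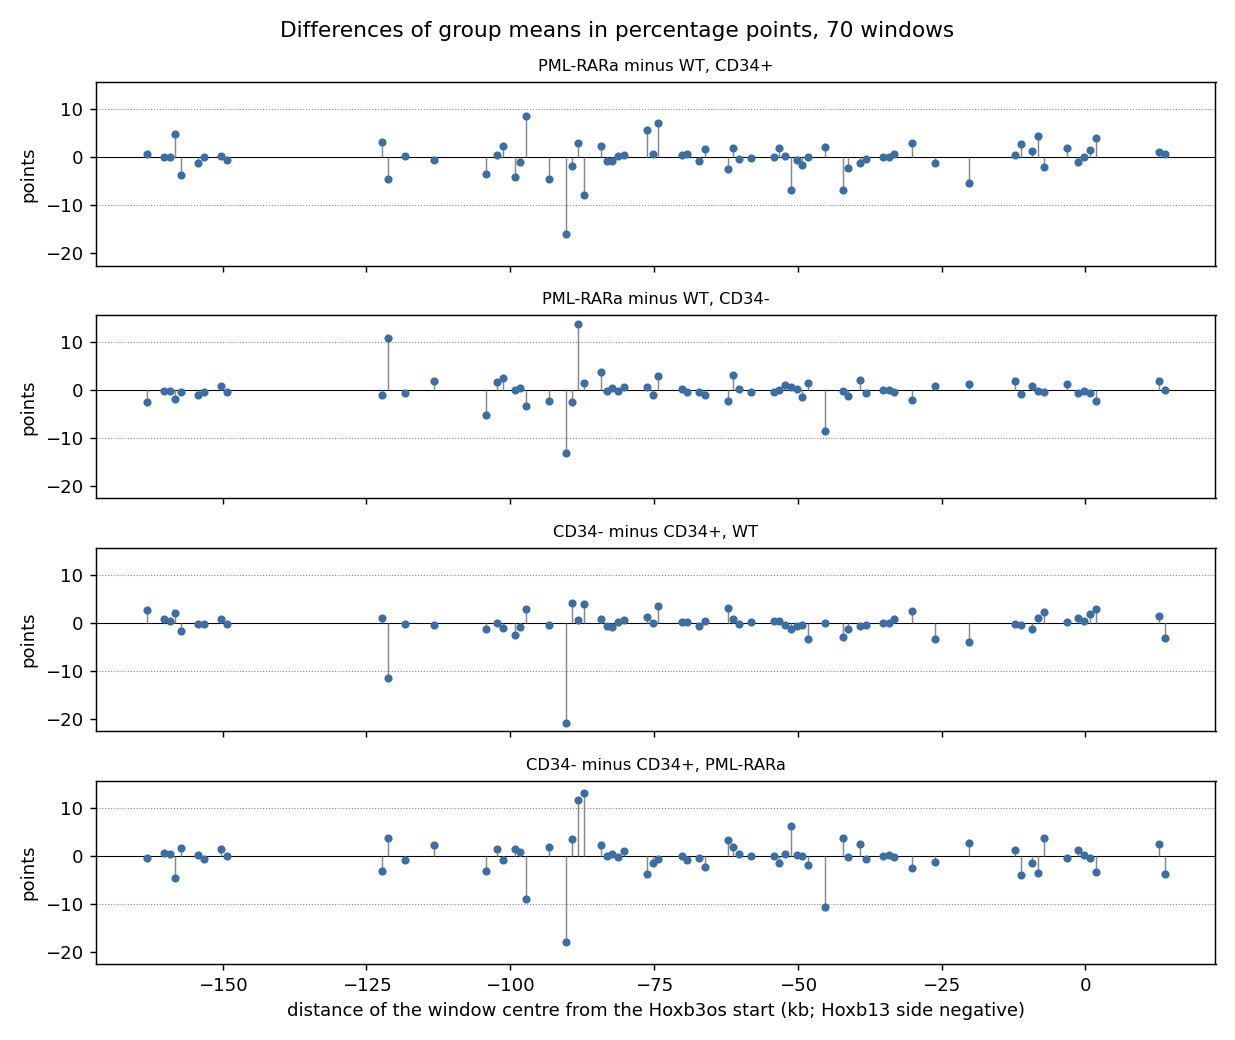
Difference of group means (percentage points) in each of the 70 windows for the 4 comparisons, against the distance of the window centre from the Hoxb3os start (kb, negative toward Hoxb13); dotted lines mark 10 points. No window was called, and 1, 3, 2 and 4 windows reach 10 points, in the order of the comparisons above.

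The difference in maturation between the genotypes, tested as an interaction, was called in no window or cytosine of the cluster, and in 0% of windows and 0% of cytosines over all chromosomes. In simulated data the test recovered 0% of cytosine interactions even at 40 points, so no call at a cytosine could be looked for. For windows it recovered 11, 34.5 and 73% of interactions of 10, 20 and 40 points. In the cluster 4 of 70 windows (5.15% of all) had an unadjusted p below 0.05, and the smallest adjusted p was 0.968 by the F test. The smallest p-values were at chr11:96145001-96146000, chr11:96115001-96116000 and chr11:96175001-96176000, with interactions of -1.08, 3.94 and 3.21 points. Without the libraries of high scatter they were -0.539, 2.05 and 5.28 points, and without PML-RARa CD34- replicate 20 the last was 1.47. The largest interaction, 15.3 points, was at chr11:96093001-96094000 (adjusted p 0.969, F test).

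Among the 1300 single cytosines, the unadjusted p was below 0.05 at 97 with WT maturation (6.2% of all cytosines), 128 with PML-RARa maturation (9.11%) and 81 for the interaction (5.94%). Group means differed by 10 points or more between genotypes at 85 cytosines in CD34+ (6.14% of all) and 88 in CD34- (5.8%). With maturation they did so at 54 in WT (4.93%) and 110 in PML-RARa (7.71%). Groups without overlap made up 0.308 to 0.462% of the cluster's cytosines. Between genotypes there were 4 such cytosines in CD34+ (0.401% of all) and 4 in CD34- (0.459%), and with maturation 6 in WT (0.678%) and 4 in PML-RARa (0.41%).

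Most single cytosines with the smallest p-values were near 0, with a few libraries at some percent. At chr11:96144523 (minus strand) WT CD34+ libraries read 0, 0.623, 0, 3.97 and 2.88% and all PML-RARa CD34+ libraries 0 (adjusted p 0.482, F test). At chr11:96154772 (plus strand) WT CD34+ libraries read 0, 0.508, 3.57, 0 and 4.52% and all PML-RARa CD34+ libraries 0 (adjusted p 0.570, F test). The partner cytosines on the other strand did not repeat this: PML-RARa CD34+ replicate 3 read 7.46% at chr11:96144522, and replicate 13 read 3.92% at chr11:96154773. At chr11:96173619 (minus strand) WT CD34+ read 15.6, 3.70, 10.2, 9.33 and 8.13% and PML-RARa CD34+ 5.81, 0, 0, 3.45 and 2.47% (adjusted p 0.635, F test). Its partner on the plus strand read 26.5, 1.89, 4.20, 1.67 and 9.49% and 6.06, 0, 0, 1.85 and 7.45%, with overlap on both strands.

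In CD34- the smallest p between genotypes was at chr11:96173653 (plus strand), where WT libraries read 0, 6.67, 5.26, 15.3 and 5.22% and the 4 PML-RARa libraries with enough reads 0 (adjusted p 0.160, F test). Few reads lay behind some of these levels: 22, 15, 19, 85 and 115 in the WT libraries and 269, 19, 53 and 86 in the PML-RARa ones. At chr11:96055613 (plus strand) all WT CD34- libraries read 0 and PML-RARa CD34- libraries 0, 4.15, 0, 3.87 and 9.43% (adjusted p 0.199, F test). The PML-RARa CD34- libraries above 0, replicates 6, 14 and 20, were all from flowcell A, and those at 0 from flowcell B. Among the WT CD34- libraries, replicates 16 and 18 were from flowcell A. With flowcell as a factor the adjusted p was 0.125 (F test). At chr11:96180177 (minus strand) PML-RARa CD34- replicate 12 read 11.1% and the other 19 libraries 0. With WT maturation, chr11:96156835 (plus strand) read 0 in all CD34+ libraries and 2.63, 1.69, 1.03, 10.2 and 6.80% in CD34- (adjusted p 0.183, F test). Its partner on the minus strand read 0, 1.54, 0, 0 and 0% in WT CD34+ and 4.08, 0, 1.94, 3.51 and 5.26% in WT CD34-. Reads at chr11:96156835 numbered 13, 39, 73, 51 and 97 in the WT CD34+ libraries and 38, 59, 97, 128 and 103 in the WT CD34- ones. With maturation in PML-RARa mice chr11:96160677 differed by -2.33 points (adjusted p 0.155, F test), and in the interaction chr11:96055729 by -3.34 points (adjusted p 0.623, F test).

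The largest difference among the named cytosines was at chr11:96125527 (minus strand), with maturation in PML-RARa mice. The 4 CD34+ libraries with enough reads gave 10.6, 0, 12 and 14.0% and the CD34- libraries 12.1, 63.4, 0, 61.4 and 59.8%, a difference of 30.2 points (adjusted p 0.125, F test). The 3 high libraries, replicates 6, 14 and 20, had 71, 44 and 82 reads there and were all from 1 flowcell. WT libraries of that flowcell read 14.3, 15.2 and 26.9%. At the partner on the plus strand, chr11:96125526, the 3 libraries read 27.9, 11.8 and 20.3%, so the high values were on the minus strand only. Over the 15 cytosine results named for a small p, the adjusted p of the F test with flowcell as a factor was lower in 9 and higher in 6. It was 0.70 for chr11:96125527, and the smallest was 0.0677, for chr11:96154772 with WT maturation.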

How the data were processed

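ERRBS was analysed in 20 libraries, 5 in each group of genotype and CD34 fraction. Per the submitters' processing notes, CASAVA 1.8.2 and Bismark were used with mm9, and no other step is given in the sources used here. The deposited files list, for each CpG cytosine, the read count (coverage) and the percent of reads with C and with T, as the authors made them. From these, methylated and unmethylated reads were recovered by rounding. Cytosines with at least 10 reads in at least 4 of 5 libraries of each group were kept on chromosomes 1 to 19, and their reads were summed in fixed 1 kb windows with at least 3 kept cytosines.

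A quasi-binomial model with 1 term per group was fitted to every window and cytosine of the genome (Python 3.11.15, numpy 2.4.6, scipy 1.17.1, numba 0.67.0). The overdispersion was moderated as in limma and kept at 1 or above, and two-sided F tests were adjusted by the Benjamini-Hochberg method over all windows or all cytosines. The model was tested on simulated data, where it recovered most of the largest differences between 2 groups, but only a minority of those of 10 points, fewer window interactions and no interaction at single cytosines. The absence of a call therefore does not show that a difference of that size is absent. An alternative used limma 3.58.1 in R 4.3.3. The cluster mean is the mean over kept cytosines, each counting once, and has no test.

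RefSeq start sequences were placed by CpG spacing, with thresholds chosen after the matches were seen, since no mm9 sequence was used here. The members, the gene lists and the tests were chosen with earlier results of these data known. Windows and cytosines were named by a rule: the 3 with the smallest p per comparison, the 3 highest, the 3 lowest, the 10 nearest 50% and the 3 of largest SD. Reads without molecular identifiers are not independent molecules.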

Additional observations from a re-analysis of the deposited data

Results flagged for a closer look

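A library stood apart from the rest of its group, its gap to the nearest other being above Dixon's 95% critical value, in 43 of 312 groups of 4 or 5 values, taken over the 70 windows, the named cytosines and the cluster mean. Chance flags about 1 in 20 groups of 5 normally spread values. That share does not hold for 13 of these results, where the other libraries were all at 0 and any other value stood apart, nor for cytosines named for a small p. The values below are levels in percent, with the range of the other libraries of the group. WT CD34+ replicate 1 read 22.4 in the window from 96057001 (others 8.58 to 11.2) and 4.92 in the window from 96132001 (others 0.814 to 1.39). It also read 0.442 in the window from 96133001 (others 0.761 to 0.879) and 5.73 in the window from 96147001 (others 1.66 to 2.82). The same library read 0.189 in the window from 96154001 (others 1.67 to 2.17) and 0 in the window from 96161001 (others 3.65 to 4.70). Its level was also 100 in the window from 96163001 (others 89.5 to 91.6) and 2.30 in the window from 96164001 (others 0.284 to 0.841). It also read 3.47 in the window from 96176001 (others 0.986 to 1.31) and 100 in the window from 96188001 (others 88.6 to 90.8). PML-RARa CD34+ replicate 11 read 2.93 in the window from 96057001 (others 9.15 to 11.5) and 30 in the window from 96138001 (others 2.67 to 5.07). The same library read 21.2 in the window from 96216001 (others 10.9 to 13.7). PML-RARa CD34- replicate 12 read 18.2 in the window from 96054001 (others 10.8 to 12.8) and 6.38 in the window from 96134001 (others 0.965 to 2.49). Its level was also 10.9 in the window from 96138001 (others 3.39 to 4.99). PML-RARa CD34+ replicate 13 read 0.124 in the window from 96179001 (others all 0) and 4.58 in the window from 96213001 (others 0.368 to 1.40). PML-RARa CD34+ replicate 5 read 27.5 in the window from 96056001 (others 9.23 to 12.0) and 4.88 in the window from 96202001 (others 0.239 to 0.982). PML-RARa CD34- replicate 20 read 3.65 in the window from 96055001 (others 0.921 to 1.55) and 5.53 in the window from 96057001 (others 11.0 to 12.8). PML-RARa CD34- replicate 4 read 11.7 in the window from 96113001 (others 0 to 2.98) and 16.8 in the window from 96228001 (others 23.6 to 25.0). PML-RARa CD34- replicate 6 read 12.1 in the window from 96112001 (others 4.77 to 6.76) and 55.3 in the window from 96169001 (others 84 to 90.1). WT CD34- replicate 2 read 2.75 in the window from 96176001 (others 0.641 to 1.07) and 0.0930 in the window from 96179001 (others all 0). PML-RARa CD34- replicate 14 read 3.40 in the window from 96061001 (others 1.28 to 1.54). WT CD34+ replicate 17 read 4.76 in the window from 96061001 (others 1.28 to 2.17). WT CD34- replicate 8 read 52.1 in the window from 96124001 (others 31.8 to 35.2). At cytosine chr11:96055613 WT CD34+ replicate 15 read 4.37 (others 0 to 0.398), PML-RARa CD34+ replicate 19 read 0.352 (others all 0). At cytosine chr11:96055729 WT CD34+ replicate 7 read 0.345 (others all 0), PML-RARa CD34+ replicate 13 read 3.03 (others all 0), PML-RARa CD34- replicate 20 read 0.427 (others all 0). At cytosine chr11:96144523 WT CD34- replicate 2 read 0.820 (others all 0). At cytosine chr11:96154772 PML-RARa CD34- replicate 20 read 0.794 (others all 0). At cytosine chr11:96156835 PML-RARa CD34- replicate 20 read 1.89 (others all 0). At cytosine chr11:96160677 WT CD34- replicate 8 read 0.943 (others all 0), PML-RARa CD34- replicate 20 read 0.532 (others all 0). At cytosine chr11:96173653 PML-RARa CD34+ replicate 13 read 6.90 (others all 0). At cytosine chr11:96180177 PML-RARa CD34- replicate 12 read 11.1 (others all 0).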

How the results depend on the processing

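The count of called windows and cytosines was 0 in each of the 5 comparisons under these alternatives: a coverage minimum of 20 reads, all 20 libraries required, flowcell or the number after # in the titles as a factor, only the groups compared, limma on log2 ratios, the libraries of high scatter left out and each library left out in turn, and for windows also a grid shifted by 500 bp and at least 1 kept cytosine. The smallest adjusted p of a cytosine went below 0.05, without a difference of 10 points, with the title number as a factor between genotypes in CD34- (0.0228) and in PML-RARa maturation (0.0339), and without WT CD34+ replicate 15 in WT maturation (0.0292). The cluster mean difference moved by more than 1 SD (pooled over the libraries of both groups) within flowcell B, to -0.997 points between genotypes in CD34- (2 against 1 library) and 0.301 points with WT maturation (1 against 1), and within flowcell D to -0.400 points with WT maturation (2 against 2); the cause was not tested. The window from 96096001 reversed in PML-RARa maturation, from -0.862 to 0.0667 points, when all 20 libraries were required. Counting every cytosine once, an alternative chosen after seeing the data, reversed no named window. Named windows have no counterpart in the shifted grid. The groups share no replicate number, and the labels do not state that consecutive title numbers (1 and 2, 3 and 4), which have the same genotype and # but opposite fractions, are paired. Over windows with reads in all libraries the deviations of these 10 couples from their group means correlated by -0.0330 to 0.152, above 0.1 in 3, and 3 couples were each other's best match. With the couples as a replicate block, an alternative chosen after seeing the data, 1 cytosine of the cluster was called in PML-RARa maturation (chr11:96112941, -10.7 points, adjusted p 0.0303, 0.531 without the block, by the F test), and no window or other cytosine in either maturation or the interaction. Over all chromosomes the calls in PML-RARa maturation went to 62 windows and 3540 cytosines. On simulated data this fit made more false calls than the one without the block. Those data gave both libraries of every couple a shared shift of a set size, not fitted to the correlations above. With flowcell as a factor, calls over all chromosomes went from 3 to 52 cytosines between genotypes in CD34-, from 1040 to 672 in WT maturation and from 0 to 26 for the interaction. Depth limits single cytosines most, where the level of a library can rest on as few as 10 reads.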
